A study of Mus musculus with 19 samples.

Results

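The 7 genes described here, of the activator protein 1 (AP-1) family, were followed in ribosome-bound messenger RNA from mouse cortical astrocytes. Members were the rows of the deposited matrix whose gene symbol was Fos, Fosb, Fosl2, Jun, Junb, Jund or Atf3, and all 7 were found among its 21749 genes, each under 1 identifier. The mice carried the transgene Tg(Aldh1l1-EGFP/Rpl10a)JD130Htz on a mixed B6;FVB background, in which the regulatory sequence of the astrocyte gene Aldh1l1 drives a ribosomal protein L10a fused to EGFP, so that tagged ribosomes can be pulled down (translating ribosome affinity purification, TRAP). The groups were 4 male libraries, 8 metestrus, 3 proestrus and 4 estrus libraries, all from animals carrying the same transgene and with no other treatment named. Females were collected at 09:00, and neither the collection hour of the males nor the age of any mouse is given in the sources used here. Males were in batch 4 only, metestrus in batches 2 (2 libraries), 3 (1) and 4 (5), and proestrus and estrus in batches 2 and 3. Whether libraries correspond to separate animals is not stated, and p-values therefore measure library-to-library spread, which may be technical.

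AP-1 is a dimer of basic leucine zipper proteins. Fos proteins pair with Jun proteins, Jun proteins can also pair with each other, and the dimers bind short DNA sites near target genes. Fos, Fosb, Junb and Jun belong to the immediate early genes, whose transcription starts shortly after a stimulus from factors already in the cell, and Fos is widely used in the cortex as a marker of recent neuronal activity. Jund is known for steadier expression, and Atf3 is a stress-induced relative that pairs with Jun proteins. In astrocytes, Fos and Jun are known to respond to injury, growth factors and calcium signals.

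The promoters of 4 members are shown as examples. Fos, Fosb and Junb were highest or among the highest in male replicates 1 and 3, and Jun varied much less, with its highest value in male replicate 3. Jund, not shown, was also highest in male replicates 3 and 1, and Fosl2, not shown, in male replicate 1. Whether a motif goes with this pattern was not tested. The 250 bases before the RefSeq start (GRCm38.p6) are given 5′ to 3′ on the strand of the gene, and capitals mark the motifs found. A RefSeq promoter was held for 7 of the 7 members.
Fos, chr12:85473640-85473889, plus strand: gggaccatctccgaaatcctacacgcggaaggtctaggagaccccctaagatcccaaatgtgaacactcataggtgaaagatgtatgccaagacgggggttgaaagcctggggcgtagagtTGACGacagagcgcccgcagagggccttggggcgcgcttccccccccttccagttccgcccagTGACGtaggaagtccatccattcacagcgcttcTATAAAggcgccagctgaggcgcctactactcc
Fosb, chr7:19310046-19310295, minus strand: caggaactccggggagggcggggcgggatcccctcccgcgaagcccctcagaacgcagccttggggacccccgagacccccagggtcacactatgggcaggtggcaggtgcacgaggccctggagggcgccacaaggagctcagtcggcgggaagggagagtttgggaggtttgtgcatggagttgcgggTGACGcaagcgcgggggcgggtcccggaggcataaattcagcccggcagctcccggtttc
Junb, chr8:84978749-84978998, minus strand: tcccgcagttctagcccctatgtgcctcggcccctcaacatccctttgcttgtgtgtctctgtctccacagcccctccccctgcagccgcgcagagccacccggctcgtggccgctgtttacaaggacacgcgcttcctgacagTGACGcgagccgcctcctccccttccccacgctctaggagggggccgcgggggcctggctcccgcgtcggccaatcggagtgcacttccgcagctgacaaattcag
Jun, chr4:95052223-95052472, minus strand: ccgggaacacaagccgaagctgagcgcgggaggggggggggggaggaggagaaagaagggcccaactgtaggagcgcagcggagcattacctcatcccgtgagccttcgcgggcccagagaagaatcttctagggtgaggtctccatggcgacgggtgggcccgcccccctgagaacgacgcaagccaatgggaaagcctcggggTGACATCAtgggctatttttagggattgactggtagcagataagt

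A set of 5 motifs was searched on both strands: the half-site TGACG of the cyclic AMP response element, the AP-1 site TGACTCA, the related site TGACATCA, the TATA box TATAAA and the CArG box of serum response factor. No match of 1 motif overlapped a match of another. The half-site TGACG stood 66 to 62 bases before the start in Fos, with a further match at 129 to 125, at 60 to 56 in Fosb and at 106 to 102 in Junb. On the opposite strand it lay 7 to 3 bases before the start of Atf3. Of 27025 promoters of the same length, 17.9% held it. Jun held TGACATCA at 45 to 38 bases before the start, which 3.02% of promoters did. TATAAA was found 33 to 28 bases before the start of Fos, and in 13% of promoters. Neither TGACTCA (4.43% of promoters) nor the CArG box (1.40%) was found in these windows in any of the 7 members, and none of the 5 motifs was found in Fosl2 or Jund. These matches describe letters only, and sequence further upstream, where sites may also lie, was not searched.

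No member passed the test in any of the 4 comparisons. In males against metestrus 0 of 7 passed limma's test at an adjusted p under 0.05, beside 0.0242% of the 20644 genes tested. In proestrus against metestrus 0 of 7 passed, beside 0.988%, in estrus against metestrus 0 of 7, beside 0.0872%, and in estrus against proestrus 0 of 7, beside 0.94%. An unadjusted p under 0.05 was found in males against metestrus for 4 members (Fos, Jun, Junb and Jund), beside 5.33% of all genes, and in proestrus against metestrus for 0 members, beside 13.1%. In estrus it was found for Jund alone, against metestrus (beside 11.3% of all genes) and against proestrus (beside 14.5%). The members share libraries and were chosen with earlier results of these data known, so these counts are a description. The comparisons share libraries of metestrus, proestrus or estrus with one another.

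The values are log2 values as deposited, in which an increase of 1 is a doubling. Levels of different genes are not compared, because whether the values are scaled to gene length is not stated. A log2 value of at least 3.32 in at least 3 libraries was required for testing, which all 7 members met and 94.9% of genes met. The summed values before the log were 1.98e7 to 2.56e7 per library, and the sequencing depth is unknown. As a check of the labels, the Y-linked genes Ddx3y, Uty, Eif2s3y and Kdm5d were higher in every male library (5.94 to 8.47) than in any female library (-1.91 to 4.03). These 4 genes and Xist, which was lower in males, were the 5 genes that passed in males against metestrus. The ranges of Xist overlapped, with 0.04 to 5.11 in male and 4.51 to 9.82 in female libraries. Defining astrocyte markers were abundant, with a mean over 18 markers of 13.97 to 14.19 in males, 13.74 to 14.28 in metestrus, 13.79 to 13.83 in proestrus and 13.37 to 14.04 in estrus. Neuron markers were also present (15 genes, 12.01 to 12.39 in all libraries), so RNA of astrocytes and of neurons cannot be told apart in a member's value. In such bulk libraries fewer cells of a type and less RNA per cell cannot be told apart.

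**Figure D1:**
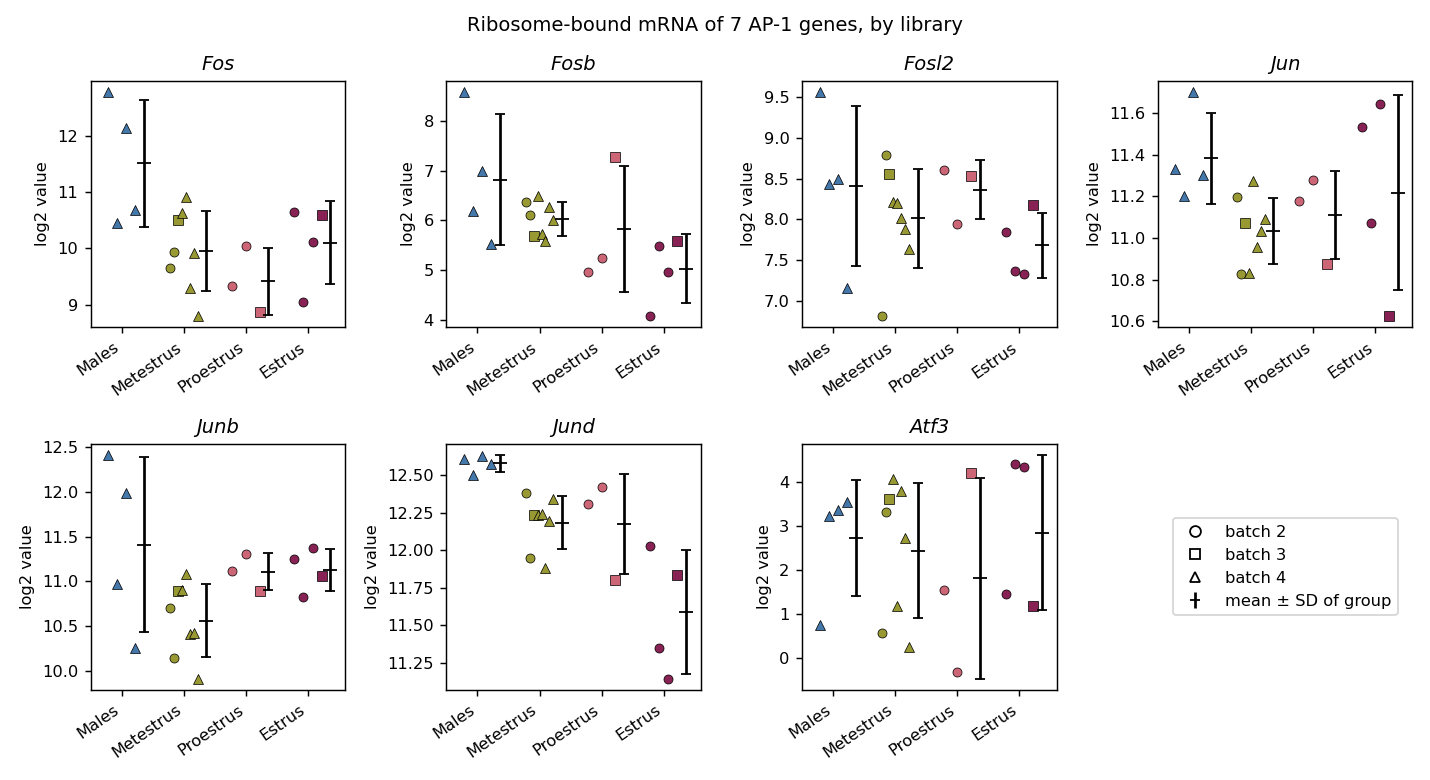
Deposited log2 values (y axis) of the 7 AP-1 genes in males, metestrus, proestrus and estrus; each point is 1 library, its shape gives the batch, and the bar beside each group is the mean ± SD. The male libraries spread widely for Fos (10.44 to 12.78) and closely for Jund (12.50 to 12.63).

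Fos, the founding member of the Fos family, had its highest levels in 2 of the 4 male libraries. The log2 values in males were 12.78, 10.44, 12.14 and 10.69 (replicates 1 to 4), and in the 8 metestrus libraries the lowest, median and highest values were 8.80, 9.93 and 10.91. Replicates 1 and 3 stood above every metestrus library and replicates 2 and 4 inside their range. Fos averaged 11.51 ± 1.13 in males (SD, n = 4) and 9.96 ± 0.71 in metestrus (SD, n = 8). The metestrus libraries of batch 4 averaged 9.91 ± 0.88 (SD, n = 5). The modelled difference, which rests on batch 4, was 3.04-fold with a 95% interval of 1.49 to 6.23. On the log2 scale this was 1.61 ± 0.49 (SE), with an unadjusted p of 0.00428 and an adjusted p of 0.796 in limma. Without male replicate 1 the log2 difference was 1.18, and without male replicate 2 it was 1.96.

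Across the cycle the Fos levels of the stages overlapped. The proestrus libraries had 9.34, 10.05 and 8.86, and the estrus libraries 10.65, 9.05, 10.11 and 10.59. Fos averaged 9.42 ± 0.60 in proestrus (SD, n = 3) and 9.96 ± 0.71 in metestrus (SD, n = 8). The modelled fold change over metestrus, which rests on batches 2 and 3, was 0.650 with a 95% interval of 0.272 to 1.55 (adjusted p = 0.711 in limma). Estrus averaged 10.10 ± 0.74 (SD, n = 4), 1.06-fold of metestrus (95% interval 0.466 to 2.39, adjusted p = 0.975) and 1.62-fold of proestrus (95% interval 0.717 to 3.68, adjusted p = 0.609). Without proestrus replicate 3 the log2 differences were -0.12 in proestrus over metestrus, in place of -0.62, and 0.24 in estrus over proestrus, in place of 0.70. By mean level the order was males, estrus, metestrus and proestrus, and neighbours among the stages lay within 1 SD of each other.

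Fosb, a Fos family member whose full-length and truncated (delta-FosB) forms are not separated in these values, was also highest in male replicate 1. Its values in males were 8.58, 6.19, 7.002 and 5.51, against a lowest, median and highest value of 5.58, 6.06 and 6.48 in metestrus. Males thus spanned the whole metestrus range on both sides. The difference was 0.81 ± 0.52 on the log2 scale (SE, adjusted p = 0.974 in limma), and it was 0.22 without male replicate 1. In proestrus Fosb had 4.97, 5.25 and 7.28, and in estrus 4.08, 5.48, 4.97 and 5.59. The 7.28 of proestrus replicate 3, the proestrus library of batch 3, was the second highest of all 19 libraries, while both proestrus libraries of batch 2 lay below every metestrus library. Estrus averaged 5.03 ± 0.69 (SD, n = 4) and metestrus 6.02 ± 0.34 (SD, n = 8). The modelled fold change, which rests on batches 2 and 3, was 0.517 with a 95% interval of 0.220 to 1.22 (adjusted p = 0.559). The fold change of proestrus over metestrus was 0.861 (95% interval 0.346 to 2.15, adjusted p = 0.925) and that of estrus over proestrus 0.600 (95% interval 0.255 to 1.41, adjusted p = 0.608). Without proestrus replicate 3 the log2 difference of estrus over proestrus was -0.11 in place of -0.74, and that of proestrus over metestrus -0.90 in place of -0.22. Without metestrus replicate 3, that of estrus over metestrus was -1.56 in place of -0.95.

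Fosl2 encodes Fra-2, a Fos family protein without a strong transactivation domain of the Fos type. Its male values were 9.56, 8.43, 8.50 and 7.16, beside 6.81, 8.11 and 8.79 as lowest, median and highest in metestrus. Male replicate 1 was again the highest of 19 libraries, and male replicate 4 the second lowest. The male difference was 0.43 ± 0.38 (SE, log2, adjusted p = 0.986 in limma) and 0.04 without male replicate 1. Proestrus libraries had 8.605, 7.95 and 8.53 and estrus libraries 7.85, 7.37, 7.33 and 8.17. Estrus averaged 7.68 ± 0.40 (SD, n = 4) and proestrus 8.36 ± 0.36 (SD, n = 3), a fold change of 0.643 with a 95% interval of 0.346 to 1.20 (adjusted p = 0.522). Over metestrus the fold change was 1.24 in proestrus (95% interval 0.637 to 2.40, adjusted p = 0.832) and 0.795 in estrus (95% interval 0.427 to 1.48, adjusted p = 0.816). Metestrus replicates 1 and 2, from the same batch, were the lowest (6.81) and the second highest (8.79) of all libraries, and leaving them out turned a direction: the log2 difference of proestrus over metestrus was -0.27 without replicate 1, and that of estrus over metestrus 0.19 without replicate 2.

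Jun, which encodes c-Jun, was among the steadiest members. Male values were 11.33, 11.20, 11.70 and 11.30, against a lowest, median and highest value of 10.83, 11.05 and 11.27 in metestrus. Of the 4 male libraries 3 lay above every metestrus library, and the highest of all 19 was male replicate 3. Jun averaged 11.38 ± 0.22 in males (SD, n = 4) and 11.04 ± 0.16 in metestrus (SD, n = 8), a fold change of 1.27 with a 95% interval of 1.003 to 1.61 (unadjusted p = 0.0478, adjusted p = 0.928 in limma). In proestrus the values were 11.18, 11.28 and 10.87, and in estrus 11.54, 11.07, 11.64 and 10.62. Estrus replicates 3 and 1 followed that male library in order and estrus replicate 4 was the lowest of all, with an SD of 0.47 in estrus. The 95% intervals of the fold changes over metestrus were 0.792 to 1.41 in proestrus and 0.850 to 1.46 in estrus, and that of estrus over proestrus was 0.805 to 1.38 (adjusted p = 0.910, 0.797 and 0.894). The pooled SD within groups was 0.27, smaller than that of most tested genes.

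Junb, a Jun family member that can restrain c-Jun, was like Fos highest in male replicates 1 and 3. Its values in males were 12.42, 10.97, 11.99 and 10.26, and in metestrus the lowest, median and highest were 9.91, 10.57 and 11.08. These replicates were the 2 highest of all 19 libraries, and the lowest of all was metestrus replicate 8, as for Fos. Junb averaged 11.41 ± 0.98 in males (SD, n = 4) and 10.56 ± 0.41 in metestrus (SD, n = 8), a fold change of 1.82 with a 95% interval of 1.15 to 2.87 (unadjusted p = 0.0132, adjusted p = 0.856 in limma). The log2 difference was 0.86, and 0.53 without male replicate 1.

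In the cycle, Junb had 11.12, 11.31 and 10.90 in proestrus and 11.25, 10.82, 11.37 and 11.06 in estrus. In each of these stages some libraries lay above the metestrus maximum of 11.08 and others below it. Proestrus averaged 11.11 ± 0.21 (SD, n = 3) and metestrus 10.56 ± 0.41 (SD, n = 8). The modelled fold change, which rests on batches 2 and 3, was 1.44 with a 95% interval of 0.824 to 2.52 (adjusted p = 0.603 in limma). Estrus averaged 11.13 ± 0.24 (SD, n = 4), 1.46-fold of metestrus (95% interval 0.865 to 2.47, adjusted p = 0.585) and 1.01-fold of proestrus (95% interval 0.601 to 1.71, adjusted p = 0.987). Without metestrus replicate 2 the log2 differences from metestrus were 0.29 in proestrus, in place of 0.53, and 0.30 in estrus, in place of 0.55.

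Jund, the steadily expressed member of the Jun family, had closely spaced values in males and its lowest values in estrus. Male libraries had 12.61, 12.50, 12.63 and 12.58, and metestrus a lowest, median and highest value of 11.88, 12.24 and 12.38. All 4 male libraries lay above all 8 metestrus libraries, which holds in this direction for 0.853% of tested genes, and they were the 4 highest of all 19. The mean was 12.58 ± 0.06 in males (SD, n = 4) and 12.18 ± 0.18 in metestrus (SD, n = 8), a fold change of 1.32 with a 95% interval of 1.03 to 1.69 (unadjusted p = 0.0311, adjusted p = 0.895 in limma). The log2 difference of 0.40 stayed between 0.32 and 0.44 on leaving out 1 library at a time.

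Estrus held the lowest Jund values. They were 12.03, 11.34, 11.14 and 11.84 in estrus, and 12.31, 12.42 and 11.80 in proestrus. Of the 4 estrus libraries 3 lay below the metestrus minimum of 11.88, and so did proestrus replicate 3. That minimum came from batch 4, which held no estrus or proestrus library. Estrus averaged 11.59 ± 0.41 (SD, n = 4) and metestrus 12.18 ± 0.18 (SD, n = 8). The modelled fold change, which rests on batches 2 and 3, was 0.658 with a 95% interval of 0.495 to 0.874 (log2 -0.60, SE 0.20). The unadjusted p was 0.00591 and the adjusted p 0.247 in limma. Without the batch term the adjusted p was 0.0273, and with the removed directions counted it was 0.460. Leaving out 1 library at a time gave log2 differences of -0.77 to -0.45 and adjusted p of 0.104 to 0.562. Estrus over proestrus was 0.662-fold (95% interval 0.498 to 0.880, unadjusted p = 0.00664, adjusted p = 0.145), and the difference had the same sign in batch 2 (11.51 ± 0.46 in 3 estrus and 12.37 ± 0.08 in 2 proestrus libraries, SD) but was 11.84 in estrus and 11.80 in proestrus in batch 3, with 1 library each. Proestrus over metestrus was 0.993-fold (95% interval 0.733 to 1.35, adjusted p = 0.991). Endothelial and mural markers (14 genes) averaged 4.95 to 6.01 in estrus and 5.60 to 6.82 in metestrus. Oligodendrocyte markers (12 genes) averaged 10.15 to 10.51 in estrus and 9.85 to 10.06 in metestrus, and the part of either list in the Jund values was not tested.

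Atf3 lay below the minimum for testing in most libraries. Male values were 0.76, 3.21, 3.35 and 3.54, and in metestrus the lowest, median and highest were 0.25, 3.02 and 4.06. Of the 19 libraries 11 lay below the minimum of 3.32, and Atf3 was tested because the other libraries reached it. Proestrus libraries had 1.55, -0.33 and 4.20 and estrus libraries 1.46, 4.41, 4.32 and 1.18. Every group therefore held values on both sides of the minimum. Its pooled SD within groups was 1.66, larger than that of 95% of tested genes, and the 95% intervals of its fold changes were 0.269 to 5.76 in males over metestrus, 0.0966 to 4.03 in proestrus over metestrus and 0.234 to 7.74 in estrus over metestrus (adjusted p = 0.999, 0.874 and 0.926 in limma). Estrus over proestrus was 2.16-fold (95% interval 0.375 to 12.4, adjusted p = 0.725), and the log2 difference of 1.11 was 0.07 without proestrus replicate 2. Male replicate 1, the highest library for Fos, Fosb, Fosl2 and Junb, was the lowest of the males for Atf3.

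**Figure D2:**
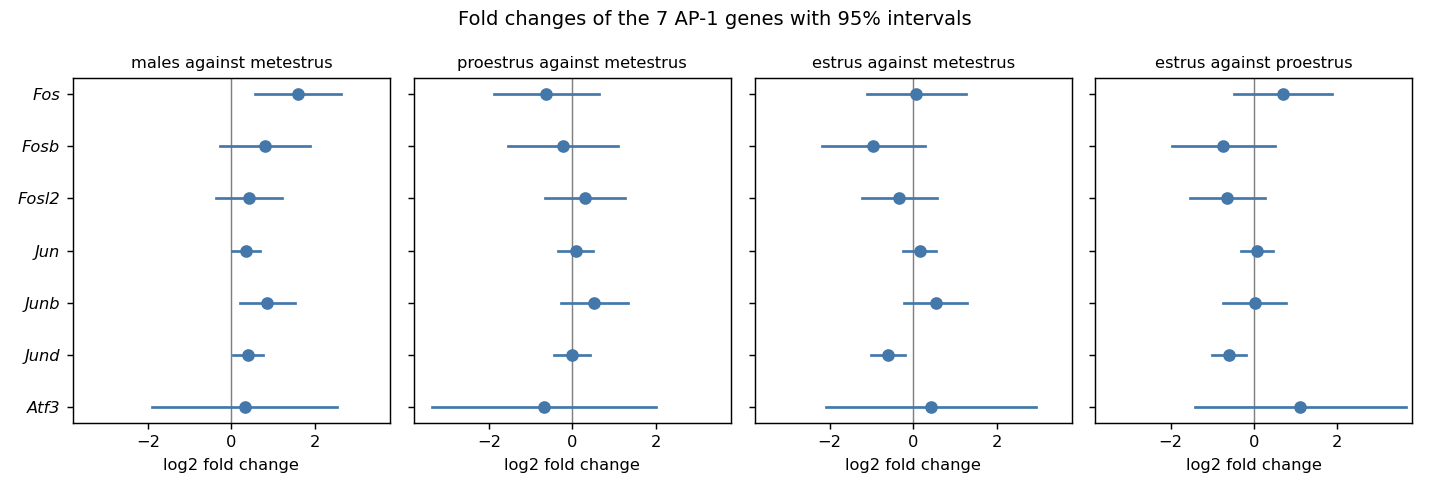
Log2 fold changes (x axis) of the 7 AP-1 genes in 4 comparisons, first group over second; points are limma estimates and lines their 95% intervals, not adjusted for the number of genes. In males against metestrus all 7 points lie above 0, from 0.31 for Atf3 to 1.61 for Fos, and in estrus the Jund interval (-1.02 to -0.19 over metestrus) lies below 0.

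In males all 7 members had positive log2 differences from metestrus, with a median of 0.43 beside 0.04 over all tested genes, of which 11420 of 20644 were positive. In the same comparison 11 of 14 endothelial and mural markers were positive, with a median of 0.43, and 16 of 18 astrocyte markers, with a median of 0.20 and Gfap at 0.70 (adjusted p = 0.650 in limma). The medians were 0.10 for oligodendrocyte markers (9 of 12 positive), 0.00079 for neuron markers (8 of 15) and -0.09 for microglia markers (4 of 12). No marker passed, and the part of these cell types in the members' values was not tested. These differences rest on batch 4, the batch that held both groups. There the 9 libraries can be split in 126 ways, and an exact permutation test (two-sided) gave p = 0.00794 for Jund, the smallest it can give, p = 0.0238 for Jun and p = 0.0714 for Fos. For Junb, Fosb, Fosl2 and Atf3 it gave 0.159, 0.246, 0.429 and 0.802. Adjusted over all tested genes the lowest of the 7 was 0.492, and 7.04% of tested genes had an unadjusted p under 0.05 in this test. In the 3 stage comparisons the median over the members was -0.01 in proestrus over metestrus, 0.08 in estrus over metestrus and 0.02 in estrus over proestrus, beside -0.09, -0.07 and 0.02 over all genes.

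Many other immediate early genes, but not all, stood high in the same male libraries. Of 27 such genes tested, 16 had their highest value of all 19 libraries in male replicate 1 and 5 in male replicate 3, against 0 in male replicate 2 and 1 in male replicate 4. Over all tested genes the highest value fell in male replicate 1 for 7.19%, in male replicate 3 for 5.45%, in male replicate 2 for 4.34% and in male replicate 4 for 9.63%. Arc, which encodes a synaptic plasticity protein of neurons, had 13.17, 11.38, 12.68 and 11.05 in males, against a lowest, median and highest value of 9.05, 10.68 and 11.91 in metestrus. Egr1, a zinc finger immediate early factor, had 13.34, 12.01, 12.72 and 11.71 in males, against 10.39, 11.50 and 12.26 in metestrus. Npas4, an activity-dependent factor of neurons, had 8.66, 6.86, 8.30 and 5.97 in males, against 3.71, 6.18 and 7.92 in metestrus. For each of these genes male replicates 1 and 3 were the 2 highest libraries of all. Other genes of the list differed: Per1 had 10.66, 10.50, 8.67 and 8.60 in males. Zfp36 lay slightly below its mean over the 19 libraries in male replicates 1 (-0.04) and 3 (-0.13). Over the 27 genes 24 were positive in males over metestrus, with a median of 0.45, 12 had an unadjusted p under 0.05 (beside 5.33% of all genes), and 0 passed the adjusted test, with Arc at 1.51 ± 0.54 (SE, adjusted p = 0.856 in limma), Egr2 at 1.43 (adjusted p = 0.917) and the nuclear receptor Nr4a1 at 1.37 (adjusted p = 0.856).

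Neuron markers were not highest in these male libraries. They averaged 12.21 in male replicate 1 and 12.01 in male replicate 3, the lowest of all 19 libraries, while male replicates 2 and 4 had 12.38 and 12.18. Astrocyte markers were at 14.19 and 14.16 in replicates 1 and 3, against 14.12 and 13.97 in replicates 2 and 4. Heat shock genes that respond to tissue handling had a median of -0.01 over 9 genes in males over metestrus, with Hspa1b at 5.23 to 6.36 in males and 4.96 to 7.35 in metestrus. Hspb1, a small heat shock protein gene, stood furthest from 0 in that list at 0.74 ± 0.27 (SE, unadjusted p = 0.0129, adjusted p = 0.856 in limma). Endothelial and mural markers averaged 6.23 and 5.61 in male replicates 1 and 3, against 7.26 and 6.52 in male replicates 2 and 4. Marker means do not measure the activity of the cells, and the part of cell types or tissue handling in the early gene values was not tested.

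**Figure D3:**
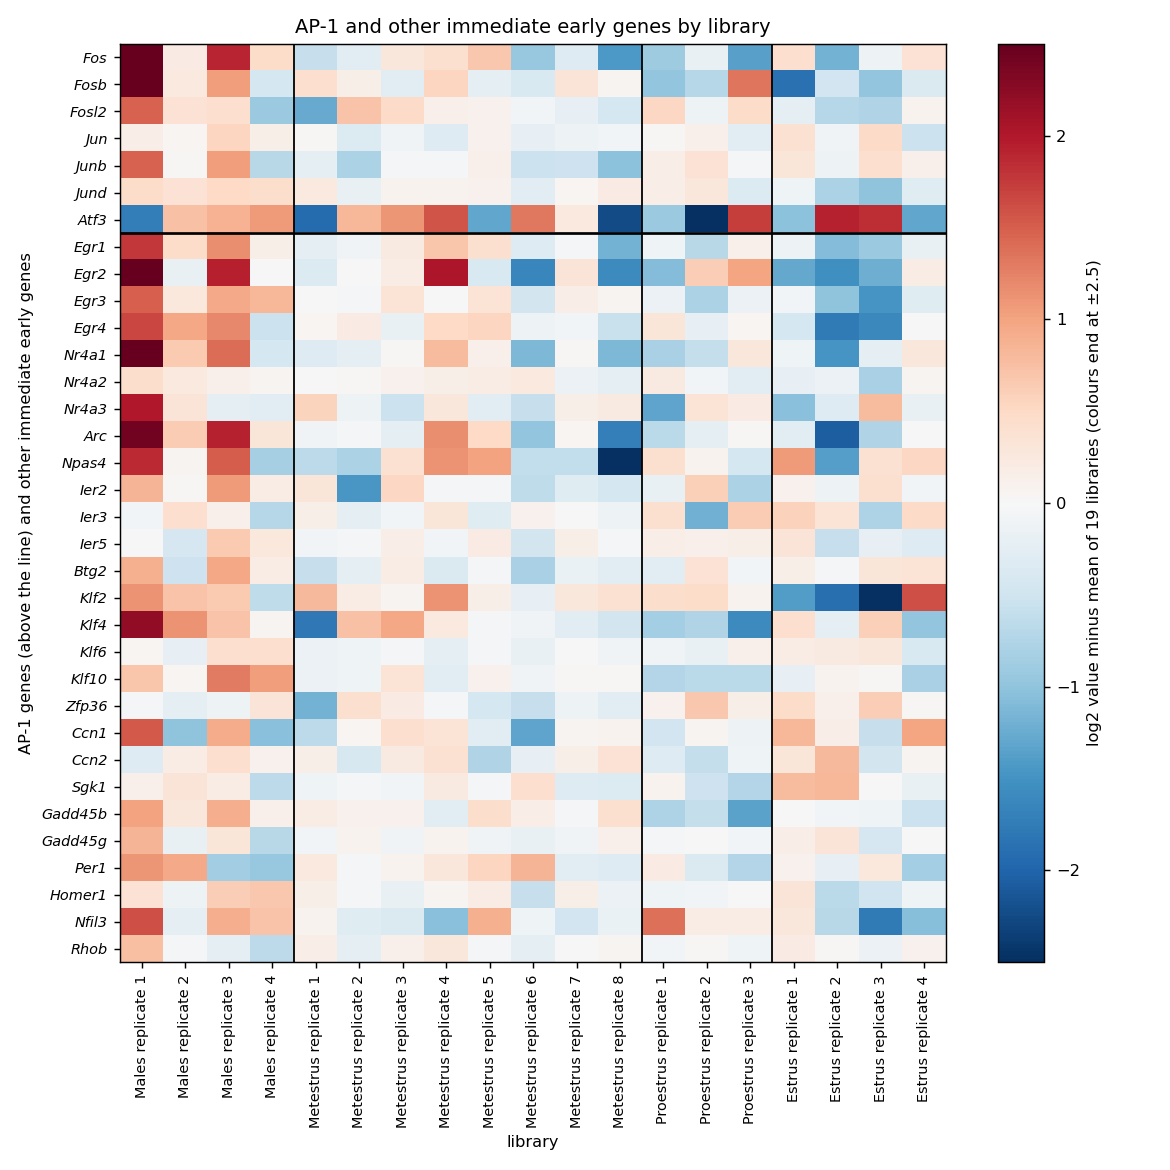
Log2 value minus the mean of the 19 libraries (colour scale) for the 7 AP-1 genes and 27 other immediate early genes (rows) in each library (columns, grouped as males, metestrus, proestrus and estrus). Male replicates 1 and 3 are red in most rows, Fos and Arc among them, while Jun and Jund are pale there and Atf3 is blue in male replicate 1 (0.76).

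In the stage comparisons 1 of the 27 early genes passed, in proestrus against metestrus, where 0.988% of all tested genes passed. Gadd45b, a stress and activity-induced gene linked to DNA repair and demethylation, had a lowest, median and highest value of 7.57, 8.13 and 8.32 in proestrus and of 8.63, 9.05 and 9.34 in metestrus. Its groups did not overlap, which held for 5.43% of tested genes in this direction. It fell by 1.03 on the log2 scale in proestrus (SE 0.25, adjusted p = 0.0463 in limma, and 0.125 with the removed directions counted). In estrus against metestrus and against proestrus 0 of 27 passed, and the largest differences were those of Klf2, an endothelial and immune zinc finger factor, at -1.66 and -1.64 (adjusted p = 0.402 and 0.299).

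Genes that act on AP-1 were then examined by list. Of 22 kinases upstream of Fos and Jun 0 passed in any of the 4 comparisons, and Map3k1, a kinase of the JNK pathway, stood furthest at -1.48 ± 0.38 in estrus over metestrus (SE, adjusted p = 0.129 in limma). Mapk8, which encodes the c-Jun kinase JNK1, averaged 9.51 ± 0.20 in males (SD, n = 4) and 9.40 ± 0.22 in metestrus (SD, n = 8). Of 17 factors that drive Fos and Jun promoters 0 passed, with Srf, serum response factor, at 8.07 ± 0.21 in males (SD, n = 4) and 7.94 ± 0.20 in metestrus (SD, n = 8). The largest differences in this list stayed within -0.53 (Atf1, estrus over metestrus) and 0.41 (Elk3, estrus over proestrus).

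Of 11 MAP kinase phosphatases, which switch off the kinases upstream of AP-1, 0 passed in any comparison. Dusp1, itself an immediate early gene, had 11.99, 10.96, 11.46 and 10.80 in males, against a lowest, median and highest value of 10.26, 10.72 and 11.12 in metestrus. Replicates 1 and 3 were again the higher male libraries, with a difference of 0.56 ± 0.23 (SE, log2, adjusted p = 0.860 in limma). Dusp10 stood at 1.27 in estrus over proestrus (adjusted p = 0.167). Of 14 tested AP-1 partners and small basic leucine zipper genes 0 passed, and Batf2 stood furthest at 3.48 ± 1.15 in proestrus over metestrus (SE, adjusted p = 0.169) and -3.50 in estrus over proestrus (adjusted p = 0.111). Batf2 averaged 3.13 over all libraries, below the minimum log2 value for testing, and was tested because enough libraries reached it. Fosl1 and Batf were not among the genes tested.

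Known AP-1 targets gave no call either. Of 23 tested genes 0 passed in any comparison, with 18 positive and 5 negative in males over metestrus at a median of 0.41. In the stages the medians were -0.08 in proestrus over metestrus, -0.12 in estrus over metestrus and 0.02 in estrus over proestrus. Vegfa, the vascular growth factor, stood at -1.23 ± 0.27 in estrus over metestrus (SE, adjusted p = 0.0830 in limma). Lgals3, galectin-3, stood at 1.48 ± 0.54 in the same comparison (SE, adjusted p = 0.304).

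**Figure D4:**
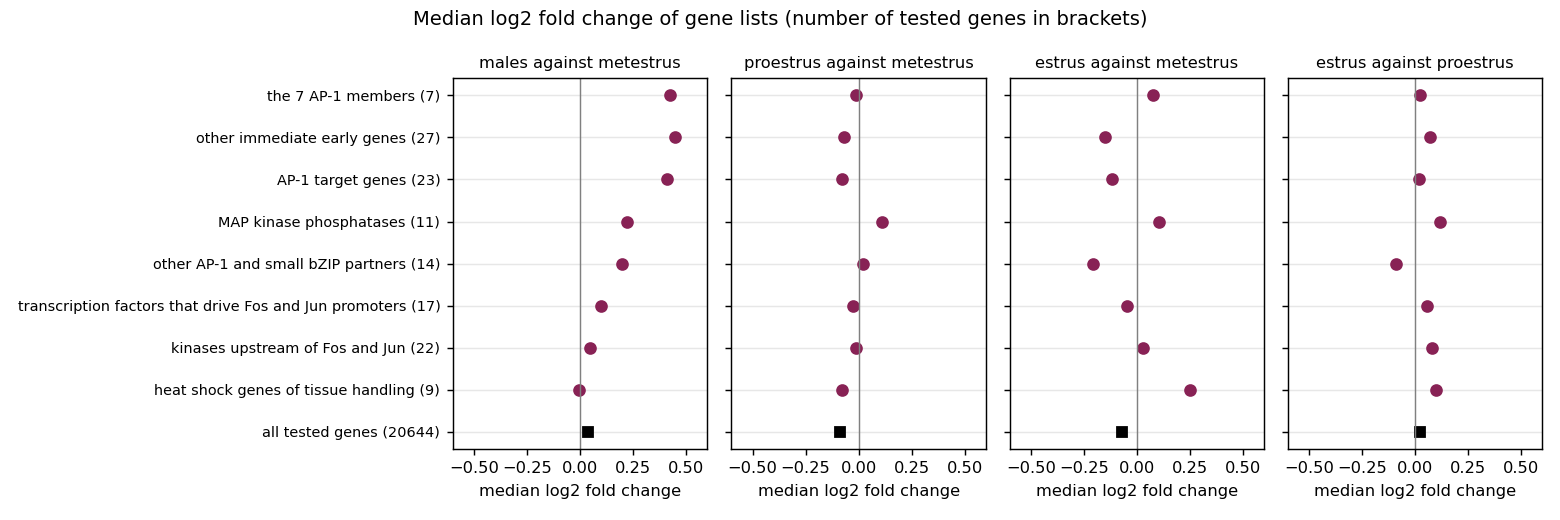
Median log2 fold change (x axis) of the 7 AP-1 genes, 7 related gene lists and all tested genes (black squares) in 4 comparisons. In males over metestrus the AP-1 members (0.43), other immediate early genes (0.45) and AP-1 targets (0.41) lie to the right of all tested genes (0.04), and in the stage comparisons the AP-1 medians lie between -0.01 and 0.08.

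Finally, the genes whose values followed each member most closely over the 19 libraries were listed by Pearson correlation, as a description, since libraries of 1 group or batch share their source and 4 directions of variation were removed from the values. They were the highest among the tested genes over these same libraries, so coefficients within batches are not a separate test of the likeness. For Fos these were Derpc (0.930), Arc (0.866) and Med19 (0.860). Within the 9 libraries of batch 4 the coefficients were 0.948, 0.963 and 0.947, and within the 10 libraries of batches 2 and 3 they were 0.825, 0.408 and 0.506. For Junb the closest were Dusp1 (0.919), Npas4 (0.831) and the collagen gene Col3a1 (0.819), with 0.973, 0.874 and 0.818 in batch 4 and 0.836, 0.665 and 0.906 in batches 2 and 3.

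The remaining members had other neighbours. Jund was followed most closely by Arhgef19 (0.940), Epop (0.926) and Abhd17a (0.917), and Jun by the RNA-binding protein gene Elavl1 (0.875), Rbm43 (0.845) and the chaperone gene Dnaja2 (0.842). For Fosb they were 1700016P03Rik (0.844), Ifit1bl2 (0.833) and Gm42829 (0.827), and for Fosl2 Maneal (0.793), H2bc3 (0.790) and Nt5dc2 (0.769). For Atf3 they were Dhdh (0.799), Cox7b2 (0.799) and Slc25a45 (0.773). Within batch 4 the coefficients of these genes were 0.704 to 0.888 for Jund, 0.767 to 0.938 for Jun, 0.740 to 0.857 for Fosb, 0.570 to 0.758 for Fosl2 and 0.652 to 0.823 for Atf3. Within batches 2 and 3 they were 0.934 to 0.949 for Jund, 0.881 to 0.899 for Jun, 0.802 to 0.882 for Fosb, 0.865 to 0.951 for Fosl2 and 0.815 to 0.887 for Atf3. No gene appeared in the first 3 places of more than 1 member.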

How the data were processed

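Ribosome-bound RNA was sequenced from 19 astrocyte TRAP libraries, and 1 matrix of 21749 genes was deposited. Its log2 values are the authors' own, and per the submitters' processing notes STAR, Salmon, edgeR and the build GRCm39 were used, with roles, versions, scaling and pseudocount not given in the sources used here. The values lack 4 directions of variation between libraries: after the groups were fitted they spanned 11 dimensions in place of 15, so the model's 13 residual degrees of freedom may make its p-values too small. A second model added 2 of these directions and counted 11.

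A model with terms for group and batch was fitted to the 19 libraries in limma 3.58.1 (R 4.3.3; trend, robust prior), over 20644 genes with a log2 value of at least 3.32 in at least 3 libraries. P-values were two-sided and Benjamini-Hochberg adjusted over these genes at a threshold of 0.05. Fold changes between stages rest on batches 2 and 3, those of males on batch 4. The script was tested on simulated data. The genes named are the 7 members, for each member the 3 most correlated genes, and for each list the genes that passed, up to 3 of the largest others and fixed examples (Dusp1, Egr1, Srf, Mapk8, Hspa1b). Members and lists were chosen with earlier results of these data known. Replicates are numbered by accession order, as names only. Titles in batch 4 hold another number, and whether it pairs libraries could not be told from the values.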

Additional observations from a re-analysis of the deposited data

Results flagged for a closer look

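In 21 combinations of a member and a group of 4 to 8 libraries, 1 library stood far from the others of its group. Atf3 in male replicate 1 had a log2 value of 0.76, against 3.21 to 3.54 in the other male libraries, and its gap to the nearest of them made up 0.880 of the range of the group. The value lies under the minimum of 3.32. Chance alone would mark about 1 in 20 such groups.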

How the results depend on the processing

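The count of members past the threshold stayed at 0 in all 4 comparisons under each alternative run, with the exception of estrus against metestrus with no batch term, where it was 1 (Jund at -0.60, adjusted p = 0.0273). Leaving out single libraries gave 0 to 0 in each comparison. Of 483 alternative values of the members, 460 kept their direction and side of the threshold and 22 changed direction, none of them past it. A part of the 483 could not change direction, because some runs altered only the spread or left out libraries that the comparison did not rest on. The 460 is therefore not a measure of stability. With libraries centred on their medians Jund in proestrus against metestrus was 0.0401 in place of -0.01. When single libraries were left out, the values in proestrus against metestrus ran from -2.01 to 0.32 for Atf3, -0.90 to 0.11 for Fosb, -0.27 to 0.81 for Fosl2, -0.10 to 0.29 for Jun and -0.15 to 0.25 for Jund. In estrus against metestrus they ran from -0.50 to 1.78 for Atf3, -0.12 to 0.41 for Fos, -0.93 to 0.19 for Fosl2 and -0.0312 to 0.35 for Jun. In estrus against proestrus they ran from -0.0333 to 0.26 for Jun and -0.13 to 0.14 for Junb, and in males against metestrus from -0.22 to 0.97 for Atf3. The cause was not tested. Counts over all genes moved more: 204, 18, 194 and 5 genes passed in proestrus and estrus against metestrus, estrus against proestrus and males against metestrus, and with no batch term 1146, 899, 217 higher with 144 lower, and 10. With the removed directions counted they were 75, 0, 52 and 5, and within shared batches alone 1, 0, 0 and 6. Estrus against proestrus gave 202 higher and 100 lower with centred libraries (123 and 71 as reported), and without trend or robust prior estrus and males against metestrus gave 49 and 9. When single libraries were left out the counts ran from 68 to 190, 0 to 56, 66 to 430 and 5 to 8. The male differences of Fosb and Fosl2 depended on male replicate 1, as given beside them. Males and metestrus of batch 4 share 4 numbers in their titles. The deviations of same-numbered libraries from their group means correlated at -0.262 to 0.160, and 1 of the 4 pairs matched each other best. With 4 pairs, and with 4 directions of variation removed from the values, whether the number marks a pairing cannot be told. With this number as a replicate block, chosen after seeing the data, 0 members and 4 genes passed over these 8 libraries, and 0 and 4 without the block. Titles of the other batches give no such number. Depth is unknown and limits Atf3 most, with 11 of 19 values below the minimum.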
